A study of Mus musculus with 14 samples.

Results

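In all, 10 genes of the Nodal, Activin and TGF-beta pathway were examined for the chromatin regions called over them in mouse embryonic stem cells (mESC) with and without knockdown of Smarcb1, a core subunit of the BAF chromatin remodelling complex. The genes were Nodal, Lefty1, Lefty2, Inhba, Inhbb, Pmepa1, Smad7, Skil, Tgfb1 and Tgfb2, which are 10 of 21938 protein-coding genes and of 55413 annotated genes. They were named as members of the pathway, but the choice also used measured values: Inhbb and Pmepa1 were chosen by their strong Ezh2 peaks listed after knockdown only. The Ezh2 values of these genes are therefore given as a description and nothing is supported with them.

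Chromatin immunoprecipitation with sequencing (ChIP-seq) was performed for the BAF subunit Smarca4, the PRC2 subunit Ezh2 and the histone marks H3K4me3, H3K27ac and H3K27me3, with 5 antibodies in all. All cells were of the line 81K1, which was derived from OG2 and carries a doxycycline-inducible shRNA against Smarcb1, also in the untreated cells. The control group was untreated and the Smarcb1 kd group received 1 µg/ml doxycycline daily, with ChIP-seq 72 h after induction. There was 1 library per antibody and condition, so that no difference between conditions has a replicate check in these lists and no test was made. Outside the lists, the study reports ChIP-qPCR at selected genes and Western blots for Smarcb1 on the cells used. An effect of doxycycline itself cannot be told apart from the knockdown, since the untreated cells received none. The knockdown of Smarcb1 could not be read from these lists, which hold no expression values.

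Nodal, the Activins and the TGF-betas are secreted dimeric ligands that bind paired type I and type II serine/threonine kinase receptors. The type I receptor phosphorylates Smad2 and Smad3, which enter the nucleus with Smad4 and bind DNA beside partners such as Foxh1. The pathway switches on its own inhibitors, among them the Lefty proteins outside the cell and Smad7 inside it, and in the early embryo it patterns the body axes and specifies mesendoderm. Smarca4 (Brg1) is the ATPase of the BAF complex of mESC, and Ezh2 is the methyltransferase of the Polycomb repressive complex PRC2 that places H3K27me3. H3K4me3 marks promoters, H3K27ac marks active promoters and enhancers, and promoters that carry both H3K4me3 and H3K27me3 are known as bivalent.

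Stretches of the reference sequence behind the results below are shown first, each 5′ to 3′ on the strand of its gene. The promoters are the 250 bases before the start of the RefSeq transcript (GRCm38.p6), and capitals mark CpG dinucleotides. Of the 10 genes, 5 were matched in the RefSeq promoter table (Nodal, Inhba, Inhbb, Tgfb1 and Tgfb2), and Lefty1, Lefty2, Pmepa1, Smad7 and Skil were not. Inhbb, at chr1:119422249-119422498 on the minus strand, is shown because an Ezh2 peak lay over it in kd only. Tgfb1, at chr7:25686752-25687001 on the plus strand, carried an Ezh2 peak in both conditions. Nodal, at chr10:61417722-61417971 on the plus strand, carried neither Ezh2 nor H3K27me3 in either.
Inhbb promoter: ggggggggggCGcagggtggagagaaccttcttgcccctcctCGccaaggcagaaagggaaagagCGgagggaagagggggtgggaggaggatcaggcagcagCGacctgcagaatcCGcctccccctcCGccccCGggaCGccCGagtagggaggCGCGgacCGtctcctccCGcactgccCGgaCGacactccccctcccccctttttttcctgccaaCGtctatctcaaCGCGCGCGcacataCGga
Tgfb1 promoter: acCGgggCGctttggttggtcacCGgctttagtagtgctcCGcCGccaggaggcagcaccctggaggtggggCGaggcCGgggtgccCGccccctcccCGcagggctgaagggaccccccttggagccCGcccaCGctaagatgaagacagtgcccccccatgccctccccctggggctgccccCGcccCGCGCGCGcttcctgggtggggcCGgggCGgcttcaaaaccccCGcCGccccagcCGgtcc
Nodal promoter: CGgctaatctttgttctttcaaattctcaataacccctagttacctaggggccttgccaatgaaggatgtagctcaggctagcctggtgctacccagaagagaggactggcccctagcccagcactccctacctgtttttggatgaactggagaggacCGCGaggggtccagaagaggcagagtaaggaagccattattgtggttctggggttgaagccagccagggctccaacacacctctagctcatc

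The promoters of Inhbb and Tgfb1 held 21 CpG dinucleotides each, and 83.6% of the 32841 promoters of the table held fewer. Those of Nodal and Inhba held 3 each and that of Tgfb2 held 8, beside a median of 6 over the table. The strongest Ezh2 peak at Pmepa1 has its central 150 bases in an intron, at chr2:173275666-173275815, shown on the minus strand with its 10 CpG dinucleotides in capitals.
Pmepa1 Ezh2 peak: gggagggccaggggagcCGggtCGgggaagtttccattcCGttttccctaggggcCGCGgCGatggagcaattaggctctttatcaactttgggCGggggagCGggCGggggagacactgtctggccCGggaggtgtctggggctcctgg

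At Nodal, the second strongest Smarca4 peak of the control covered 1655 bases inside an intron. The 150 bases of it shown here, at chr10:61419214-61419363 on the plus strand, were picked to hold as many matches as possible to TGTNNATT, the core bound by Foxh1. They hold 2 matches to it and 2 to CAGAC, the Smad box, which played no part in the choice. Both motifs were searched on both strands, and capitals mark the matches, which here do not overlap.
Nodal intron Smarca4 peak: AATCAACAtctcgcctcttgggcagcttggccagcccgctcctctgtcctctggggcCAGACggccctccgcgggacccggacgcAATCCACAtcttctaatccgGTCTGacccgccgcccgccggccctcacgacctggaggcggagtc

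The whole of this Nodal peak held 3 matches to TGTNNATT and 6 to CAGAC. Windows of the same 1655 bases around the centres of the Smarca4 control peaks held at least 3 matches to TGTNNATT in 7.03% of 78975 cases. Within the central 300 bases, 15 of the 182 Smarca4 control peaks at the 10 genes (8.24%) held TGTNNATT and 108 held CAGAC. The same shares over all 79011 Smarca4 control peaks with readable sequence were 10% and 56.7%. Among the promoters shown or matched, only that of Tgfb2 held CAGAC, with 2 matches, and none of the 5 held TGTNNATT, while 42.2% and 10.9% of all promoters of the table held these motifs. A match says only that these letters are present.

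The lists held between 72339 and 79014 peaks of Smarca4, 5364 and 6708 of Ezh2, and between 18320 and 51100 islands of a histone mark. For Smarca4 and H3K4me3 these numbers are higher than those the study reports, so the lists are not the sets counted there. The study states only a nominal number of reads per library, the depth reached by each is unknown, and neither the MACS2 score of a peak nor the SICER p-value of an island is scaled between libraries. A region absent from a list was therefore not called there, which is not a measured loss. Smarca4 and H3K27me3 were immunoprecipitated by Active Motif and the other antibodies in the authors' laboratory, so differences between these antibodies cannot be told apart from differences between laboratories. As a check of the labelled cell type, 7 of 8 stem cell genes (Pou5f1, Nanog, Sox2, Klf4, Esrrb, Zfp42, Tbx3 and Dppa5a) had H3K4me3 within 1 kb of the TSS in both conditions, and 5 and 7 had H3K27ac in control and kd. Esrrb was the one without H3K4me3, and H3K27me3 was called at Klf4, Esrrb and Tbx3 in control and at Esrrb and Tbx3 in kd. All 6 genes of other cells (Col1a1, Col1a2, Pax6, Neurod1, Gata6 and Sox17) had H3K27me3 in both conditions and none had H3K27ac.

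At the promoters, taken as 1 kb on each side of the TSS, all 10 genes carried a Smarca4 peak in control and in kd, beside 62.5% and 63.5% of protein-coding genes. An H3K4me3 island lay over 9 of the promoters in control and over all 10 in kd, where Inhba, the gene of the Activin beta A subunit, was the added one, beside 56.6% and 60.4% of protein-coding genes. H3K27me3 was called at 8 promoters in control and 6 in kd, beside 34.9% and 29.2% of protein-coding genes, and Nodal and Smad7 lacked it in both lists. Lefty2 and Skil had the mark in control and not in kd, as did 8.15% of protein-coding genes. Both H3K4me3 and H3K27me3 were present at 7 promoters in control and 6 in kd, beside 21.2% and 21.6% of protein-coding genes.

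H3K27ac was called at the promoters of Nodal and Pmepa1 in control and at those of Nodal, Lefty2, Inhbb, Pmepa1, Smad7 and Skil in kd. The share of protein-coding genes with a promoter island of H3K27ac was 16% in control and 30.9% in kd. The 4 genes with H3K27ac at the promoter in kd and not in control were Lefty2, Inhbb, Smad7 and Skil, and 16.8% of protein-coding genes followed the same pattern. Ezh2 was called at the promoters of Tgfb1 and Tgfb2 in control and additionally at those of Inhbb and Pmepa1 in kd. Of protein-coding genes, 7.13% had a promoter peak of Ezh2 in control, 12.6% in kd, and 5.78% in kd and not in control. Since Inhbb and Pmepa1 were chosen by this contrast, nothing is read from that count.

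**Figure D1:**
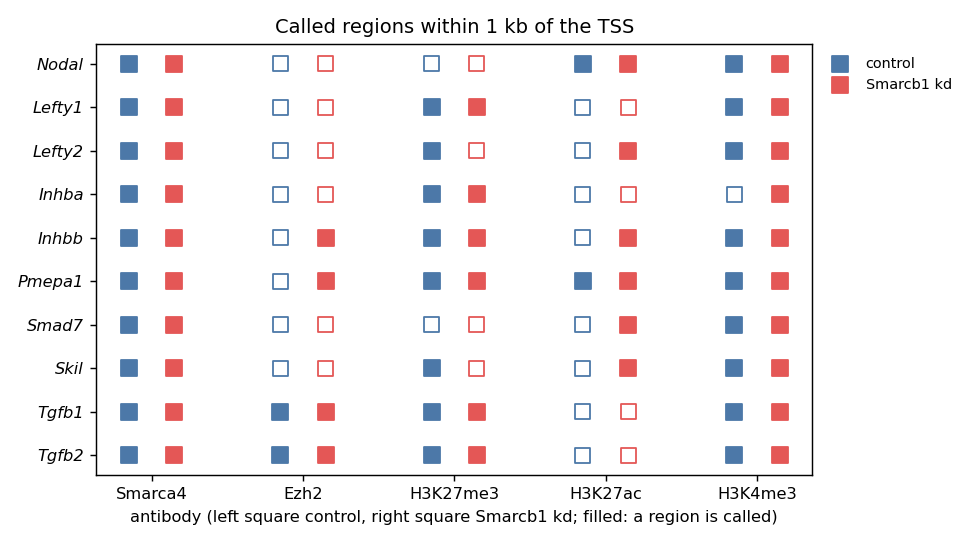
Called regions within 1 kb of the TSS of each gene (rows) for each antibody (columns), 1 library per square, with the control left and Smarcb1 kd right. A filled square means that a region is listed: Smarca4 is filled for all 10 genes in both conditions, and H3K27ac for 2 genes in control and 6 in kd.

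The window of a gene held its body, the 1 kb before its TSS, and 20 kb more on each side. They measured 44.4 to 124 kb, with a median of 59.9 kb, beside 58.4 kb over all protein-coding genes. The windows of the neighbours Lefty1 and Lefty2 overlap, and regions in both were counted once. Starts of other protein-coding genes also fell in some of the windows, among them Zbp1 at Pmepa1, and B9d2, Ccdc97 and Tmem91 at Tgfb1. A region was called control-only or kd-only when it shared no base with a region of the other condition.

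Smarca4 peaks at the 10 genes numbered 182 in control and 132 in kd, of which 88 were control-only and 25 kd-only. At least 1 control-only peak lay at 8 genes and at least 1 kd-only peak at 8 genes, while 55.8% and 58.5% of protein-coding genes had one. Together the control peaks covered 141 kb and the kd peaks 76.8 kb, a log2 ratio of kd to control of -0.88. Their mean score was 110 in control and 94 in kd. Pmepa1 weighed heavily in this ratio, which was -0.52 without it. Covered length was lower in kd at 9 of the 10 genes, Inhba being the exception, with a median log2 ratio of -0.56. Over all 17142 protein-coding genes covered in both lists the median was -0.15, and 60.3% were lower in kd.

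Ezh2 peaks were few, 3 in control and 12 in kd. Together they covered 1.29 kb in control and 9.30 kb in kd, with mean scores of 75.7 and 199.5 and median scores of 77 and 126. Without Inhbb and Pmepa1, which were chosen by their kd-only peaks, the Ezh2 peaks covered 1.29 and 4.02 kb. The kd scores given above still include the strong peaks of these 2 genes, which raise the mean. Nodal was the 1 gene with a control-only peak, where 11.4% of protein-coding genes had one. Kd-only peaks lay at 6 genes, Lefty1, Inhba, Inhbb, Pmepa1, Tgfb1 and Tgfb2, and 14.1% of protein-coding genes had one. Of the 8 genes not named for their Ezh2 peaks, 4 had a kd-only peak. The 2 genes chosen by their kd-only Ezh2 peaks both reached a score of 613, and the strongest kd-only Ezh2 peak at another of the genes had a score of 186, at Tgfb1. Of all protein-coding genes covered by Ezh2 in both lists, 92.8% had the longer coverage in kd, with a median log2 ratio of 0.74.

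H3K27me3 islands numbered 16 in each condition and covered 152 kb in control and 150 kb in kd. Control-only islands lay at Lefty1, Lefty2, Pmepa1 and Skil, 4 genes of 10, beside 36.7% of protein-coding genes. Kd-only islands lay at 2 genes, Pmepa1 and Smad7, beside 11.9% of protein-coding genes. Without Pmepa1, where the mark covered more in kd, the islands of the other genes covered 128 kb in control and 98.5 kb in kd. The median log2 ratio of the 9 genes with the mark in both lists was -0.30, and -0.36 over all 11473 such protein-coding genes.

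H3K27ac islands numbered 14 in control and 27 in kd and covered 64.1 and 91.4 kb, a log2 ratio of kd to control of 0.51 that was 0.34 without Smad7. Of the 8 genes covered in both lists, 4 were covered less and 4 more in kd, with a median log2 ratio of 0.11, beside 0.18 over all such protein-coding genes. Kd-only islands lay at 8 genes, all but Inhba and Tgfb2, and control-only islands at 4, Inhbb, Pmepa1, Smad7 and Skil. The corresponding shares of protein-coding genes were 56.6% and 22.6%. Repeat-masked bases made up at least 50% of 10 of the 27 kd islands and 4 of the 14 control islands, and their part in these counts is given with the alternatives. H3K4me3 islands numbered 15 in control and 20 in kd, covering 70.8 and 80.2 kb. Of the 9 genes covered in both lists, however, 5 had less H3K4me3 coverage in kd and 4 more, with a median log2 ratio of -0.29, beside 0 over all such protein-coding genes. None was control-only, as against 6.63% of protein-coding genes with such an island, and kd-only islands lay at Lefty2, Inhba and Smad7, 3 genes of 10, as against 30.7%.

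**Figure D2:**
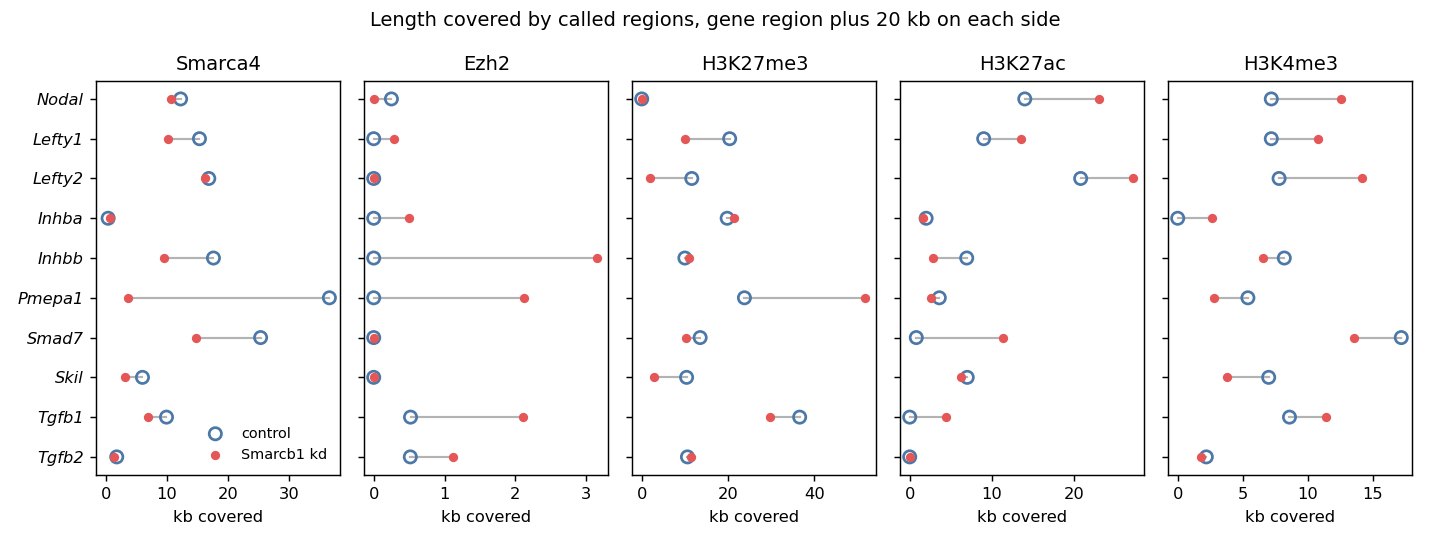
Length in kb covered by called regions in the window of each gene, for each antibody, with the control as an open circle and Smarcb1 kd as a filled point, 1 library each. Pmepa1 stands apart in 2 panels, with 36.5 kb of Smarca4 in control and 3.59 kb in kd, and 23.8 kb of H3K27me3 in control and 51.8 kb in kd.

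Among the ligands, Inhbb (chr1:119415465-119422248, minus strand) encodes the beta B subunit of the Activins and Inhibins. The Ezh2 peak over its TSS, at chr1:119419825-119422982, was listed in kd only, with a score of 613 and a width of 3.16 kb, rank 385 of 5364. It spans the CpG-rich promoter shown above. In the control list no Ezh2 peak lay in the whole window. H3K27me3 was called over the TSS in both conditions, in an island of 10 kb in control and 11 kb in kd, with -log10 p of 166 and 119.

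Smarca4 peaks at Inhbb numbered 22 in control and 16 in kd, and covered 17.6 and 9.51 kb. The peak over the TSS had a score of 616 in control and 307 in kd. Another peak, over the coding sequence, had a score of 667 in control, and the strongest kd peak overlapping it had 280. All 12 peaks of Inhbb without a counterpart were control-only, and most lay beyond the gene end, as drawn in the plot of regions at Pmepa1 and Inhbb. H3K27ac lay over the TSS in kd only, in an island of 2.8 kb ranked 11782 of 51100. H3K4me3 was shorter in kd, 8.2 kb against 6.6 kb, and its p-value was listed as 0 in both.

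Tgfb1 (chr7:25687002-25705077, plus strand) encodes TGF-beta 1. It had 1 Ezh2 peak in control, over the TSS with a score of 83, and 4 in kd. The kd peak over the TSS had a score of 208, and 3 kd-only peaks with scores of 186, 55 and 67 followed, the last of them ending 2.5 kb into the gene. H3K27me3 formed a single island of 36.6 kb in control, whose p-value was listed as 0, and was split in kd into islands of 7.2, 17.4 and 5.2 kb, the middle one over the TSS. The same stretch held H3K4me3 over the TSS in both conditions, 3.6 kb in control and 4.4 kb in kd. The strongest Smarca4 peak of the window lay 16.3 kb upstream with a score of 428 in control, and the kd peak there had 129. Over the TSS the Smarca4 scores were 236 and 147. H3K27ac was not called at the Tgfb1 promoter in either condition, and 2 kd-only islands of low rank lay downstream of the gene.

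Tgfb2 (chr1:186622792-186705989, minus strand) encodes TGF-beta 2 and has the longest window, yet few regions. Just downstream of the TSS, over untranslated exon sequence, an Ezh2 peak had a score of 67 in control and 190 in kd, and a kd-only peak of score 44 lay 1.32 kb into the gene. H3K27me3 over the TSS measured 10.6 kb in control and 11.4 kb in kd, and H3K4me3 2.2 and 1.8 kb. Smarca4 was listed 3 times in control and 2 times in kd, with scores over the TSS of 259 and 204. No H3K27ac island lay in the window in either condition.

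Inhba (chr13:16011851-16031621, plus strand), encoding the beta A subunit, was the gene with least Smarca4, a single control peak of score 49 at the TSS and kd peaks of 63 and 57. H3K27me3 lay over it as islands of 15.4 and 4.4 kb in control and as 1 island of 21.4 kb in kd. A weak Ezh2 peak, with a score of 29 and rank 5083 of 5364, was listed over the coding sequence in kd only. H3K4me3 of 0.8 kb was called at the TSS in kd only, and the 1 H3K27ac island of each condition lay downstream of the gene, with 95.5% of its bases repeat-masked in control.

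Nodal (chr10:61417972-61425338, plus strand), the ligand of the early embryo, differed in its marks from the other ligands, with no H3K27me3 island in its window in either condition. H3K27ac over its TSS and upstream measured 10.6 kb in control, with -log10 p of 28.6 and rank 6099 of 39091. In kd it measured 12.8 kb, with -log10 p of 168 and rank 158 of 51100. The ranks compare an island with its own list. H3K4me3 measured 7.2 kb in control, with rank 6183 of 26130, and 12.6 kb in kd, where the p-value was listed as 0. A kd-only H3K27ac island of 2.0 kb also lay in an intron.

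Smarca4 was listed 12 times at Nodal in control and 18 times in kd, and all 12 control peaks had an overlapping kd peak. The intronic peak shown above had a score of 398 in control and 162 in kd. The strongest control peak, over a coding exon, had a score of 435, and the strongest kd peak, over the TSS, had 314. Covered length was 12.2 kb in control and 10.7 kb in kd. The 1 Ezh2 peak of the window, 20.4 kb upstream, was control-only with a score of 77, and 63.6% of its bases were repeat-masked.

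**Figure D3:**
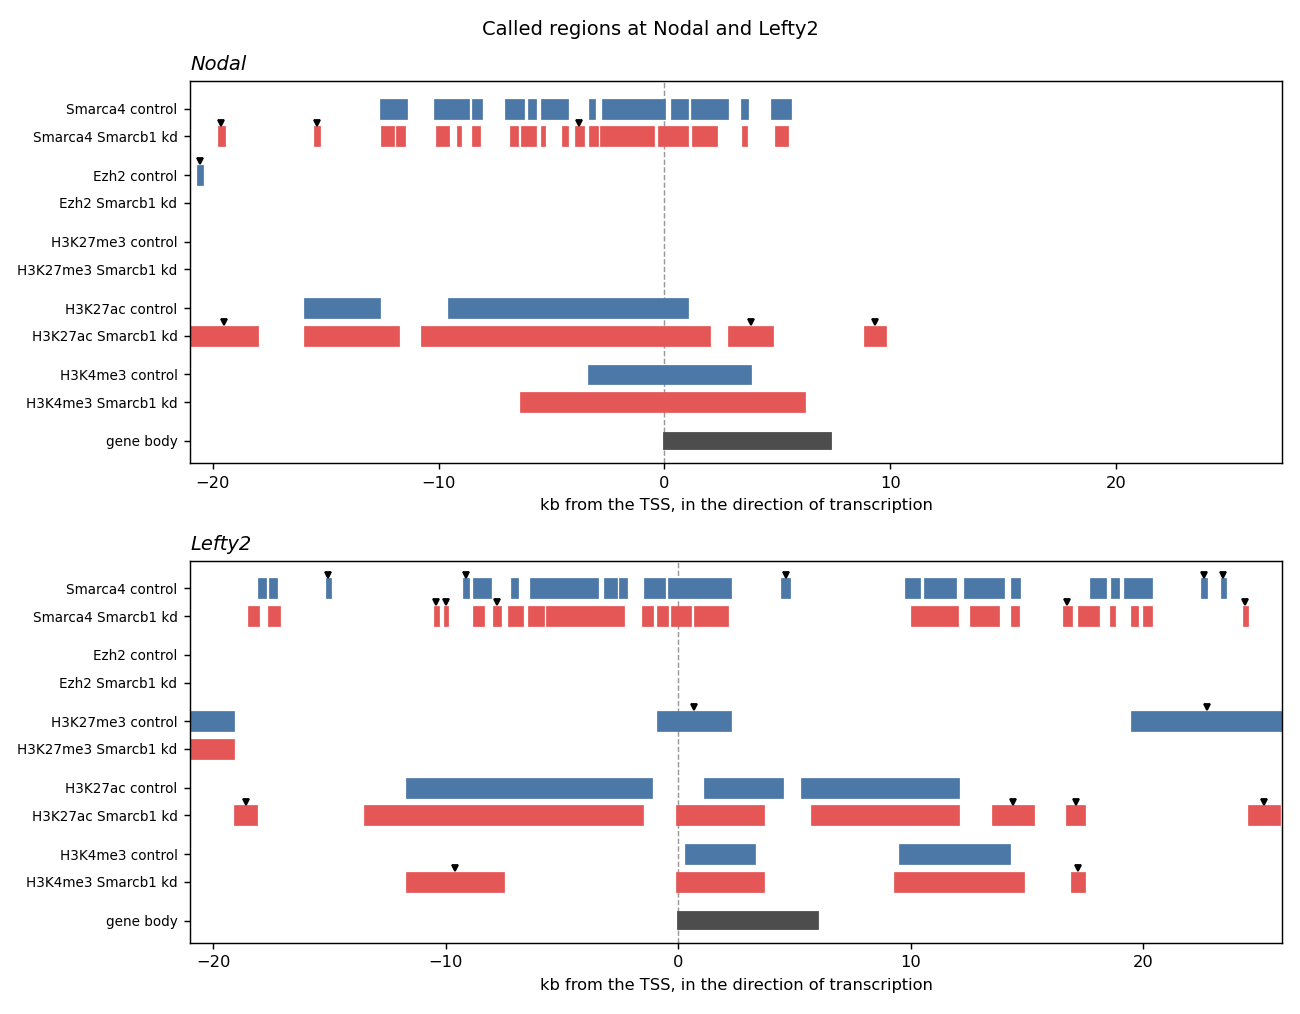
Regions called around Nodal and Lefty2, by distance from the TSS in kb, with 1 track per antibody and condition, the gene body in grey, and black triangles over regions called in that condition only. At Nodal the H3K4me3 island is 7.2 kb long in control and 12.6 kb in kd, and at Lefty2 the H3K27me3 island over the TSS appears in the control track only.

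The secreted inhibitors Lefty1 (chr1:180935022-180938400, plus strand) and Lefty2 (chr1:180893108-180899103, plus strand) bind Nodal and its co-receptors and lie next to each other. At Lefty2 an H3K27me3 island of 3.2 kb lay over the TSS in control only, near the weak end of its list at rank 22322 of 22909. H3K27ac reached the Lefty2 TSS in kd, in an island of 3.8 kb with -log10 p of 33.8. Its counterpart in control began 1.09 kb into the gene and had -log10 p of 12.4. A longer H3K27ac island upstream of Lefty2 measured 10.6 kb with -log10 p of 38.2 in control and 12 kb with 156.7 in kd, rank 192 of 51100. The H3K4me3 island at the start of Lefty2 had -log10 p of 44.8 in control and 206.1 in kd.

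Lefty1 had H3K27me3 and H3K4me3 over its TSS in both lists, with H3K27me3 of 6.0 and 5.0 kb and H3K4me3 of 4.2 and 4.6 kb. A 10.4 kb island of H3K27me3 between both genes, 12 kb upstream of Lefty1, was control-only. In kd an H3K27ac island of 11.4 kb reached into the same intergenic stretch, against islands of 5.2 and 3.8 kb in control, and H3K27ac was not called at the Lefty1 promoter. The highest Smarca4 score was 274 in control and 234 in kd at Lefty1 and 388 and 385 at Lefty2. An Ezh2 peak of score 60 lay 7.53 kb downstream of the Lefty1 TSS in kd only, and none lay in the window of Lefty2.

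Pmepa1 (chr2:173224458-173276533, minus strand) encodes a membrane protein that keeps Smad2 and Smad3 from the receptor. Smarca4 was listed 45 times in its window in control and 10 times in kd, and 38 of the control peaks were control-only. Of the 29 intronic control peaks 25 had no kd counterpart. The strongest control peak of the far intron, 37.0 kb from the TSS and 3.45 kb wide, had a score of 310, and the kd peak within it had 48 and was 0.502 kb wide. Closer to the TSS the highest score was 344 in control and 120 in kd. Covered length was 36.5 kb in control and 3.59 kb in kd, a log2 ratio of -3.35, the lowest of the 10 genes.

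Ezh2 was listed 3 times at Pmepa1 in kd and not in control. The peak at chr2:173275220-173276261 had a score of 613, a neighbour over the TSS had 300, and another in an intron had 29. Below them, H3K27me3 over the TSS measured 18.6 kb in control and 39.2 kb in kd, and reached 10.1 kb and 36.5 kb into the gene. Further kd islands of 6.6 kb upstream and of 6.0 kb at the far end of the gene were listed, the latter in kd only. The -log10 p of the TSS island was 132.5 in control and 190.1 in kd. The active marks were listed at the TSS in both conditions and were shorter in kd, H3K4me3 with 5.4 kb against 2.8 kb and H3K27ac with 1.6 kb against 1.0 kb. The H3K27ac island had the higher -log10 p in kd, 17.9 against 6.86.

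**Figure D4:**
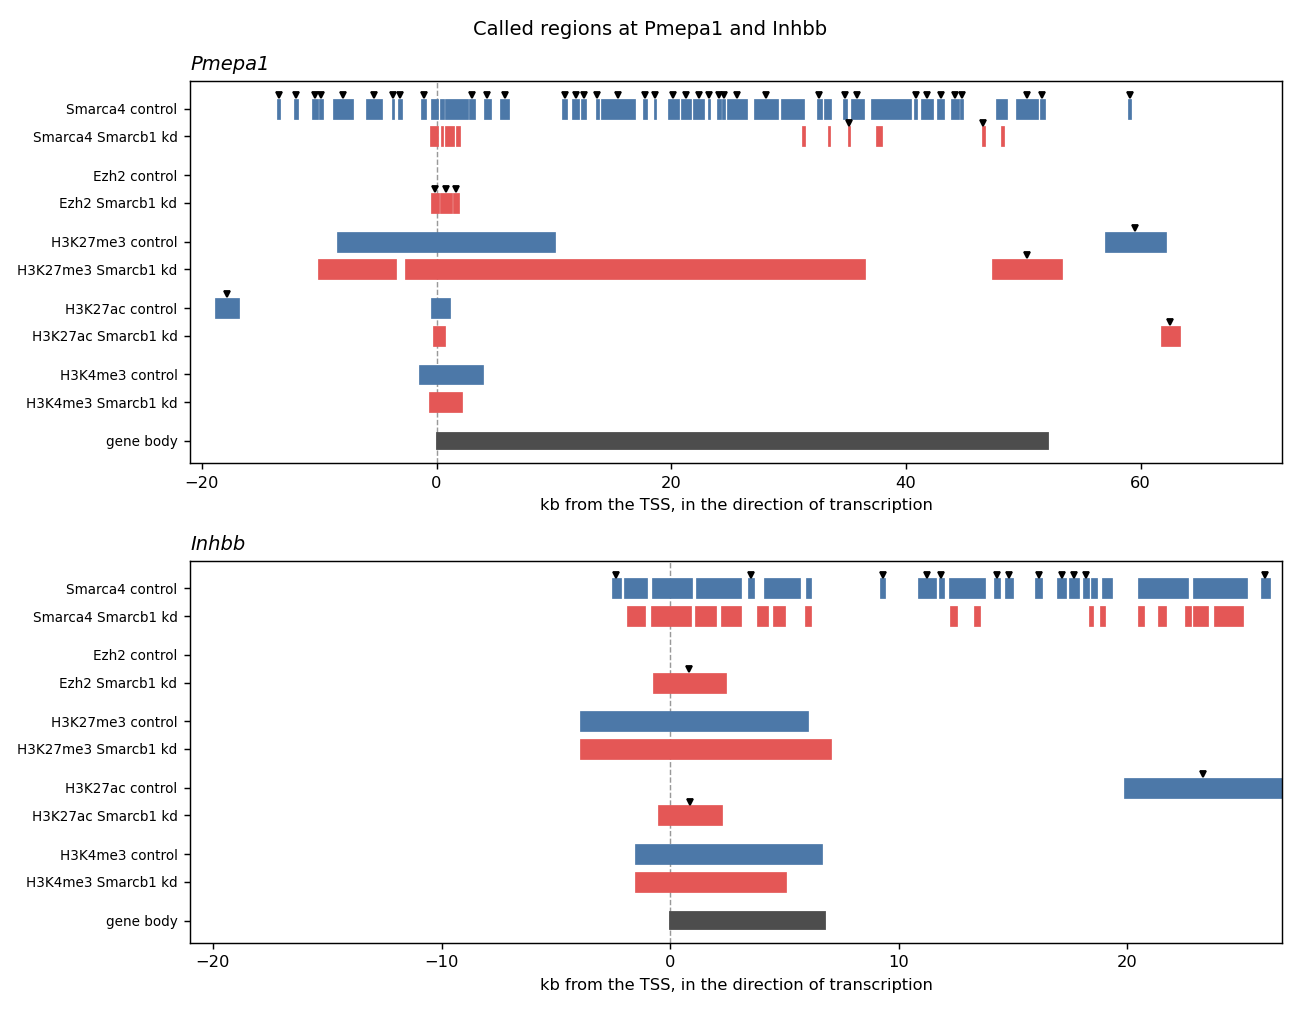
Regions called around Pmepa1 and Inhbb, by distance from the TSS in kb, with 1 track per antibody and condition, the gene body in grey, and black triangles over regions called in that condition only. Of the 45 Smarca4 peaks of Pmepa1 in control, 36 lie in the gene region, and the 10 kd peaks cover 3.59 kb. The Ezh2 peaks of both genes are in the kd track only. They lie over the TSS at Inhbb, and over the TSS, a coding exon and an intron at Pmepa1.

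Smad7 and Skil act inside the cell. Smad7 (chr18:75367529-75395935, plus strand), the inhibitory Smad that blocks the type I receptor, had neither Ezh2 nor H3K27me3 at its promoter. An H3K27ac island of 5.0 kb lay over its TSS in kd only, with -log10 p of 31.9 and rank 7418 of 51100, and 3 further kd-only islands lay around it. H3K4me3 over the TSS measured 17.2 kb in control and 11.8 kb in kd. Smarca4 peaks numbered 38 in control and 27 in kd, and 12 of the 17 intronic control peaks had no kd counterpart. At the promoter the scores lay the other way, with a highest value of 489 in control and 589 in kd.

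Skil (chr3:31095058-31122577, plus strand) encodes SnoN, a nuclear protein that holds Smad complexes inactive. H3K27ac lay over its TSS in kd only, in an island of 2.6 kb with -log10 p of 57.5 and rank 2103 of 51100. An H3K27me3 island upstream ended 0.858 kb from the TSS in control and 1.66 kb from it in kd, so that in kd it was still listed but lay outside the promoter window. Its -log10 p was 25.9 in control and 10.4 in kd. Another H3K27me3 island, 8.66 kb upstream and 7.0 kb wide, was control-only. H3K4me3 measured 7.0 kb in control and 3.8 kb in kd. The Smarca4 peak over the TSS had a score of 322 in control and 424 in kd.

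Across the 10 genes the highest Smarca4 score of the window was lower in kd at 7 and higher at Inhba, Smad7 and Skil, with a median log2 ratio of -0.29. Over the 17142 protein-coding genes with a peak in both lists the median was 0.04, and 47.6% were lower in kd. The lowest ratios belonged to Pmepa1 (344 against 120), Tgfb1 (428 against 186) and Inhbb (667 against 307). The scores set against each other are the highest of each window and need not come from the same site. At Tgfb1 the control peak lay upstream of the gene. At Inhbb the control peak lay over the coding sequence and the kd peak over the TSS.

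**Figure D5:**
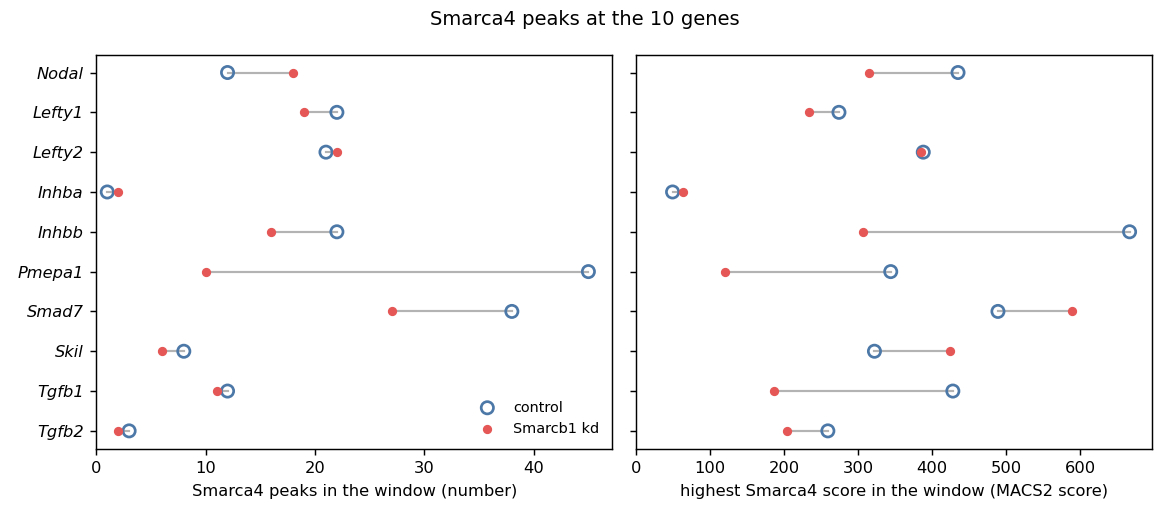
Number of Smarca4 peaks (left) and highest MACS2 score of a Smarca4 peak (right) in the window of each gene, with the control as an open circle and Smarcb1 kd as a filled point, 1 library each. The number is 45 in control and 10 in kd at Pmepa1, and the highest score is higher in kd at Inhba, Smad7 and Skil.

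Another 45 genes of the pathway, from ligands to targets and none of them among the 10, were examined in the same way, and all 45 were found in the annotation. Promoter H3K27ac was listed at 8 of them in control (17.8%) and 21 in kd (46.7%), beside 16% and 30.9% of protein-coding genes. In kd and not in control it was listed at 14 (31.1%), beside the 16.8% of protein-coding genes given above. Of the 8 signal transducers and nuclear partners, 3 had H3K27ac at the promoter in control and 7 in kd. Among them, Smad3 and Foxh1 had it in kd only, Smad2 in both and Smad4 in control only. Each other group of the list also had more such promoters in kd than in control. Promoter Ezh2 was listed at 9 of the 45 in control (20%) and 15 in kd (33.3%), beside 7.13% and 12.6% of protein-coding genes. In kd and not in control it was listed at 6 (13.3%), beside 5.78% of protein-coding genes. Of these 6, 3 were genes of the matrix and processing group, to which the latent TGF-beta binding proteins belong. The group of antagonists and feedback genes, among them Fst and Cer1, had 1 Ezh2 promoter in each condition.

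Promoter H3K27me3 was listed at 28 of these 45 genes in control (62.2%) and 27 in kd (60%), beside the 34.9% and 29.2% of protein-coding genes given above. H3K4me3 was listed at 35 (77.8%) and 37 (82.2%), beside 56.6% and 60.4%. The highest-ranked kd-only Ezh2 peaks of the list lay at the starts of Tgfbr2, the type II receptor of TGF-beta (score 219), Ltbp1 (208) and Pcsk6, a proprotein convertase (154). Control-only Ezh2 peaks lay at 12 genes of the list (26.7%) and kd-only ones at as many, beside 11.4% and 14.1% of protein-coding genes. The highest-ranked control-only ones lay in mostly repeat-masked sequence away from the TSS, at Ltbp2 (score 294, 96.3% masked), Fst (146, 97.1%) and Smurf1 (100, 73.9%). Control-only Smarca4 peaks lay at 34 of the 45 genes (75.6%) and kd-only ones at 33 (73.3%), beside 55.8% and 58.5% of protein-coding genes. The highest-ranked control-only Smarca4 peaks were found at Ski, with scores of 187 and 167, and Acvr1b, with 156. The highest-ranked kd-only ones were found at Smad4 (171, 79.9% masked), Acvr2b (140) and Foxh1 (100).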

How the data were processed

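ChIP-seq of 5 antibodies in control and Smarcb1 kd cells was examined, from 14 samples of which 4 were inputs whose reads were not analysed here. The authors trimmed reads with Trim Galore, aligned them with Bowtie2 to mm10, kept unique alignments with SAMtools 1.9, and called MACS2 peaks (Smarca4, Ezh2) and SICER islands (histone marks). The deposited score of a peak is the authors' MACS2 score, lowest at 13 or 14. For an island the deposited p-value came from the authors' SICER call, after their filter on it, and is printed here as -log10 p. The methods name input as the background and a figure legend of the study names IgG, so the background is not certain. The depth each library reached is not given in the lists.

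Autosomal regions (1 to 19) and those of X and Y were placed on GENCODE M21 genes (GRCm38), an earlier release than the one named in the methods. An overlap needed 1 bp, computed in Python 3.11.15, checked with bedtools 2.31.1 and tested on simulated lists. Sequences are from RefSeq GRCm38.p6, where lower case in the genome file marks repeats; the printed letter case does not. Genes named are the 10 members, and from another 45 pathway genes up to 3 per antibody and direction with the highest-ranked region of 1 condition. Members, gene lists and motifs were chosen with earlier results of these data known. Alternatives were a stricter threshold, overlap, merging, equal list lengths, other windows and repeat-masked regions. Figures were drawn with matplotlib 3.10.9.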

Additional observations from a re-analysis of the deposited data

How the results depend on the processing

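For 25 values (counts of genes with regions of 1 condition, covered lengths and promoter counts), 134 alternatives were computed. Of these, 112 kept the direction and differed by at most 1.5 times in the count or in the linear ratio of covered lengths, 18 differed by more and 4 had the opposite sign. On the log2 scale shifts can still be large beside a small value, as for H3K27me3 with 50 kb around the genes (-0.37). A replicate could not be left out, since each group had 1 library. No paired analysis was possible because the result comes from no test.

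Taking the gene region alone, without the 20 kb around it, gave 4 genes with a kd-only Smarca4 peak, 0 with a control-only Ezh2 peak, 1 with a control-only and 1 with a kd-only H3K27me3 island, and 0 with a control-only and 4 with a kd-only H3K27ac island. The log2 ratio of covered length was then 1.35 for H3K27ac, 0.49 for H3K27me3 and -0.17 for H3K4me3, in place of 0.51, -0.013 and 0.18. The H3K27me3 ratio was 0.013 at the stricter threshold and 0.062 with lists of equal length. With 50 kb around the genes, 2 had a control-only Ezh2 peak, 8 a control-only H3K27me3 island and 5 a kd-only H3K4me3 island. At the stricter threshold (a minimum score of 50, a minimum -log10 p of 10 for H3K27ac islands and of 20 for H3K27me3 and H3K4me3 islands), 1 gene had a kd-only H3K27me3 island, 1 a control-only H3K27ac island and 1 promoter H3K27ac in control. When 50% of a region had to be covered, 5 had a kd-only H3K4me3 island. Without repeat-masked regions, 0 genes had a control-only Ezh2 peak, 2 a control-only and 5 a kd-only H3K27ac island. Without Inhbb and Pmepa1, an alternative added after the data were seen, as were those without Pmepa1 or Smad7 in the report, the Ezh2 log2 ratio was 1.64 in place of 2.85. The cause was not tested.

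With 1 library per group and unknown depth, the condition, the library and its depth cannot be told apart. The sign of H3K4me3 covered length at these genes depends on the window, that of H3K27me3 also on the threshold and list length, and the values at Inhbb and Pmepa1 for Ezh2 were part of how the genes were chosen.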
